A study of Caenorhabditis elegans with 9 samples.

Results

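The transcriptome of *daf-1*; *daf-3* double mutants was compared with that of the wild type, N2, in adult hermaphrodites of Caenorhabditis elegans. The comparison takes 6 of the 9 libraries of the series, 3 of *daf-1*(m40);*daf-3*(mgDf90) and 3 of N2. Of the 40127 entries of the deposited expression table that name a gene, it takes the 13258 that reached 0.5 FPKM in at least 2 of these 6 libraries. FPKM counts the fragments of a gene per kilobase of transcript, scaled to the mapped fragments of the library. Both genotypes were grown on the NA22 strain of E. coli at 16 °C to the L4 larval stage, after which they spent 25 h at 25 °C by the sample labels. Each library holds poly(A) RNA of whole gravid worms. The double mutants carry both alleles in every animal and were made by crosses, and mgDf90 is a deletion of *daf-3*. The other genotype of the series, the *daf-1*(m40) single mutant with an intact *daf-3*, is used here only for levels set beside those of the double mutants. In RNA of whole worms, fewer cells of a type and less RNA per cell cannot be told apart.

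DAF-7 is a TGF-beta ligand that sensory neurons release when food is plentiful. It binds a type II receptor, DAF-4, and the type I receptor DAF-1, which activate the R-SMADs DAF-8 and DAF-14, and these inhibit the Co-SMAD DAF-3. Without the receptor DAF-3 is free to act, and animals enter the dauer stage, which a mutation of *daf-3* suppresses. The comparison of *daf-1*; *daf-3* with N2 therefore asks which transcripts differ from the wild type when both the receptor and the SMAD that it restrains are mutated.

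The 6 libraries had FPKM totals between 748170 and 959313 and between 16063 and 16923 entries above 0. The 10 highest entries held 4.83 to 6.57% of the total in 5 libraries and 10.7% in *daf-1*; *daf-3* replicate 3, where the single entry Y53H1C.11 reached 43891.5 FPKM. The study left that replicate out as an outlier, and it is kept here, so that results are given with it and, where the value or call moves, without it. Markers of oocytes and eggshell, of early embryos and of yolk were present in every library, at summed levels of 8828 to 12281, 23.2 to 39.9 and 11697 to 16792 FPKM, as gravid adults should have.

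With all 3 batches, gene expression differed between *daf-1*; *daf-3* and N2 mostly upward, and without replicate 3 of the double mutants it differed about as often in each direction. A gene is called a DEG (differentially expressed gene) here when its difference was at least 2-fold and its adjusted p was below 0.05 in limma, in a fit on log2(FPKM + 0.25) with the batch number as a block. Of 13258 entries, 322 (2.43%) were DEGs, 268 of them (2.02%) higher and 54 (0.407%) lower in the double mutants. The higher DEGs had a median log2 difference of 1.96 and the lower ones of −2.15, and 67 and 14 of them differed by at least 8-fold. All 268 and all 54 had the same sign in each of the 3 batches. The fit chose these genes on the same 6 libraries. This agreement and the separation given next therefore follow largely from the choice and are not independent evidence. The 3 double mutant libraries lay above the 3 N2 libraries for 263 of the 268 and below them for 52 of the 54, whereas over all entries tested the groups were apart in this way for 11.8% and 7.14%. Of the higher DEGs, 50 had a mean under 0.5 FPKM in N2. The counts depended on the batches. In a fit with the block a library without its partner adds nothing to the difference, so that leaving out 1 library leaves out its batch, and "without batch 1" below stands for leaving out replicate 1 of either genotype. There were 151 DEGs without *daf-1*; *daf-3* replicate 1 and 153 without N2 replicate 1, 341 and 339 without replicate 2 of either genotype, and 816 and 826 without replicate 3 of either. The 816 without *daf-1*; *daf-3* replicate 3 were 412 higher and 404 lower, and without the block that set of libraries gave 421 higher and 514 lower.

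**Figure D1:**
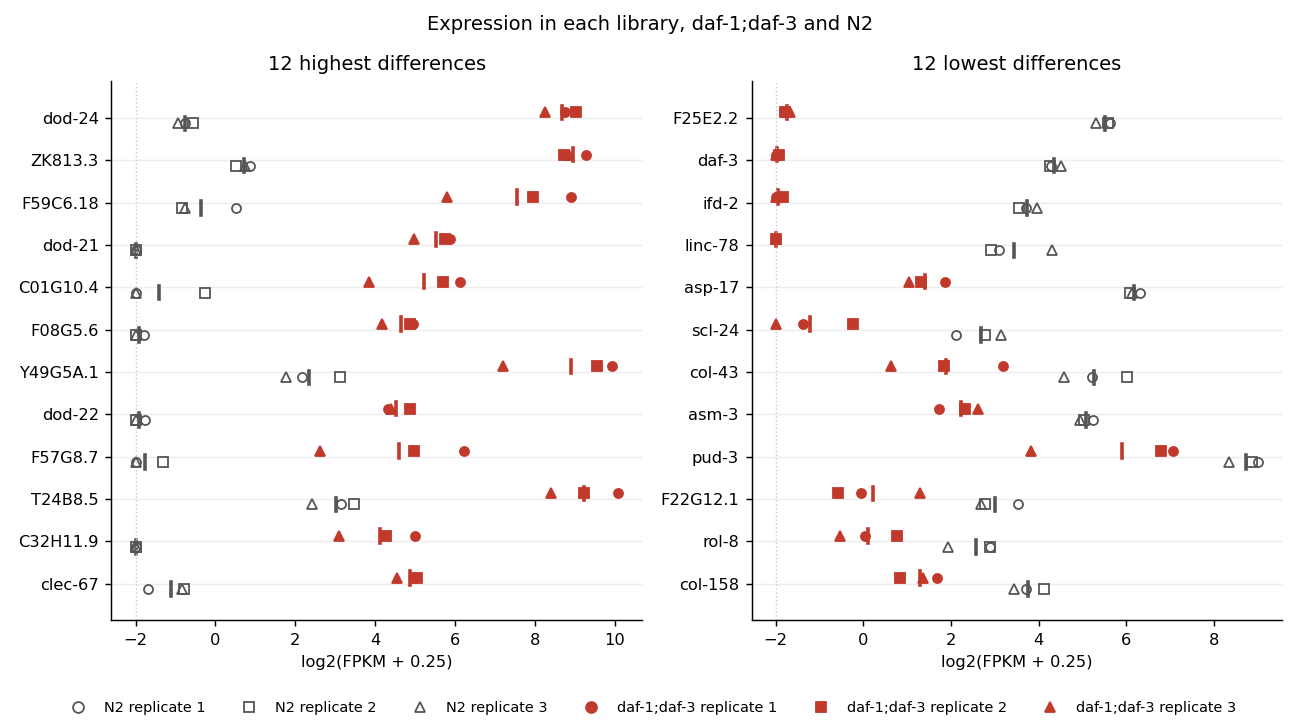
Level of the genes with the 12 highest and the 12 lowest log2 differences among the DEGs that follow the naming rule, in each of the 6 libraries, on a log2 axis of FPKM with 0.25 added. Open grey symbols are N2, filled red symbols *daf-1*; *daf-3*, the symbol's shape gives the replicate, short bars are group means, and the dotted line marks 0 FPKM. In every row the 3 red symbols lie apart from the 3 grey ones, which the naming rule requires. The red triangle of replicate 3 is the lowest of its group for 10 of the 12 genes on the left.

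The deletion in *daf-3* was seen directly. *daf-3* (X: 817922 to 825475, build WBcel235) was measured at 19.2, 18.8 and 22.5 FPKM in N2 replicates 1, 2 and 3 and at 0, 0.0147 and 0 in the double mutants (log2 difference −6.32 ± 0.265 SE, adjusted p = 0.000175). No library of either genotype went against its label. The log2 difference understates a change to 0, because 0.25 is added to every value. In *daf-1* single mutants the *daf-3* mean was 20.9 FPKM (SD 1.24, n = 3).

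The 3 neighbouring genes on one side were at or near 0 together with *daf-3*. F25E2.2 (X: 806991 to 810794) read 48.8, 47.8 and 39.3 FPKM in N2 and 0.0365, 0.0414 and 0.0636 in *daf-1*; *daf-3*, a log2 difference of −7.25 ± 0.239 and the lowest named here. *ifd-2*, an intermediate filament gene at X: 813854 to 815929, read 12.8, 11.38 and 15.3 FPKM in N2 against 0, 0.0285 and 0. F25E2.3 (X: 811173 to 813163) read 2.60, 2.37 and 3.30 FPKM in N2 against 0, 0 and 0.0342, and its adjusted p of 0.00360 became 0.0570 without batch 1. These 3 genes stood at means of 43.1, 20.8 and 5.148 FPKM in *daf-1* single mutants, where *daf-3* is intact.

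On the other side of *daf-3* the nearest gene tested, F39H12.1 (X: 834778 to 837823), remained expressed. Its levels were 7.67, 7.91 and 8.83 FPKM in N2 and 5.20, 4.73 and 4.06 in the double mutants, which lay below N2 without passing the test (log2 difference −0.78, adjusted p = 0.125). Within 50 kb of *daf-3* the table had 23 annotated entries with 1 gene name, 12 of which were tested. Of these, 4 were lower, all of them *daf-3* and its neighbours, and 1 was higher: F56F10.1, with 31.2, 25.7 and 28.7 FPKM in N2 and 58.6, 60.02 and 55.4 in *daf-1*; *daf-3* (log2 difference 1.02, adjusted p = 0.00913). F56F10.1 was close to the 2-fold limit and kept its call in 15 of 23 alternative fits (adjusted p = 0.0664 without batch 1), and it was at a mean of 57.1 FPKM in *daf-1* single mutants as well.

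**Figure D2:**
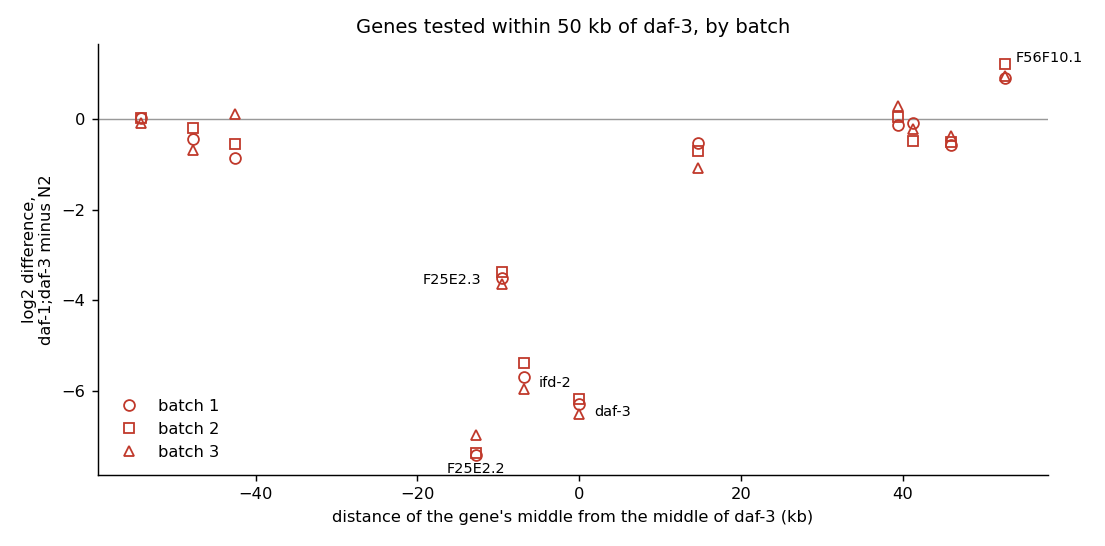
Log2 difference (*daf-1*; *daf-3* minus N2) of each tested gene within 50 kb of *daf-3*, in each of the 3 batches, against the distance in kb between the middle of the gene and the middle of *daf-3*. F25E2.2, F25E2.3, *ifd-2* and *daf-3* lie between −3.39 and −7.42 in every batch, and the other genes between −1.08 and 1.22.

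No other gene on the list for the DAF-7 pathway was called, and the receptor gene *daf-4* was not among its tested members. *daf-1* itself, the receptor gene, read 21.6, 23.7 and 22.3 FPKM in N2 and 14.5, 13.7 and 12.96 in the double mutants. The groups were apart, with a log2 difference of −0.71 ± 0.139, but the difference was under 2-fold and its adjusted p was 0.0557. The mean of 13.4 FPKM (SD 0.565) in *daf-1* single mutants was close to the 13.7 (SD 0.762) of the double mutants. The ligand gene *daf-7* read 3.40, 3.23 and 3.85 FPKM in N2 and 3.40, 3.49 and 3.40 in *daf-1*; *daf-3*, and the R-SMAD genes *daf-8* and *daf-14* had log2 differences of −0.19 and −0.12. *daf-5*, which encodes a partner of DAF-3, had a mean of 40.4 FPKM in N2 and 43.6 in the double mutants. The list had 14 tested genes, those of the pathway and others such as *daf-2*, *daf-12*, *daf-11*, *daf-19* and *daf-22*. Among them *daf-3* was the single DEG.

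The gene list with the highest share of DEGs was that of the dod and CUB-like genes and the infection response genes (irg), many of which the intestine makes upon infection. dod stands for downstream of DAF-16, the FOXO factor of insulin signaling. The lists were chosen with earlier results of these data known. Of 20 such genes tested, 13 were higher and 0 lower, against 2.02% and 0.407% of all entries. Their median log2 difference was 1.92 against −0.02 over all entries. Without replicate 3 of the double mutants 13 were higher as well, with and without the block, against 3.2% and 3.27% of all entries. The summed level of the list was 550.3 to 630.8 FPKM in the N2 libraries and 1984 to 3001 in those of *daf-1*; *daf-3*.

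*dod-24* had the largest log2 difference of all genes named here. It read 0.336, 0.428 and 0.276 FPKM in N2 and 428.8, 523.7 and 304.9 in the double mutants (log2 difference 9.43 ± 0.156, adjusted p = 3.92e-06). It was called in all 23 alternative fits. In *daf-1* single mutants it was at a mean of 87.4 FPKM (SD 17.4), and the double mutants stood above that by a log2 difference of 2.24 (adjusted p = 0.00175). The double mutants were set against *daf-1* in a fit of all 9 libraries, in which 1.46% of all entries were DEGs.

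*dod-21* and C32H11.9 (now named *cld-1*), its neighbour, were listed at 0 FPKM in every N2 library. *dod-21* read 58.1, 53.96 and 30.97 FPKM in the double mutants and C32H11.9 read 31.7, 18.99 and 8.31, with no overlap of the groups. Both had means under 1 FPKM in *daf-1* single mutants, 0.909 and 0.275, and both were higher in *daf-1*; *daf-3* than in *daf-1* (adjusted p = 0.000268 and 0.00462). No fold against N2 is given, since those libraries were at 0.

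Other members were higher in both mutants. *irg-4* (F08G5.6 in the table), a CUB-like gene induced by bacterial pathogens, read 0.0415, 0 and 0 FPKM in N2 and 30.4, 29.1 and 17.6 in the double mutants (log2 difference 6.58, adjusted p = 0.000175), with a *daf-1* mean of 8.702. *irg-5* (F35E12.5) read 7.10, 8.47 and 5.08 FPKM in N2 and 426.5, 439.5 and 169.2 in *daf-1*; *daf-3* (log2 difference 5.50 ± 0.181), and its *daf-1* mean was 320.3. *dod-19* rose from a mean of 134.9 FPKM (SD 18.97) to 579.5 (SD 71.0), and its *daf-1* mean was 462.8 (SD 45.7). The difference between the double and the single mutant passed the test for *irg-4* (log2 difference 1.54, adjusted p = 0.0356) and missed it for *irg-5* (0.09, adjusted p = 0.879) and *dod-19* (0.32, adjusted p = 0.16).

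On chromosome IV the dod and CUB-like genes stood side by side. Between K08D8.4 and *dod-17* (IV: 12907469 to 12978343), a stretch of 70.9 kb chosen after its values were seen, 13 genes with an entry of their own were tested. Of these, 11 were higher in *daf-1*; *daf-3*, each with groups that did not overlap, and 0 were lower. *dod-22*, with 0.0467, 0 and 0 FPKM in N2 and 19.8, 29.03 and 20.8 in the double mutants, and *dod-17*, with N2 values up to 0.217 and double mutant values from 3.59 to 8.36, lay at its far end. The 2 that were not called were C32H11.5 (adjusted p = 0.614) and C32H11.7 (adjusted p = 0.314). The call of C32H11.4, another of the 11, was lost without batch 1 (log2 difference 4.33 with all batches, adjusted p = 0.0135, against 0.153 without), and its difference was 3.62 without batch 2 and 5.24 without batch 3. The call was lost without batch 1 for *dod-17* as well (adjusted p = 0.00384 against 0.0674).

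**Figure D3:**
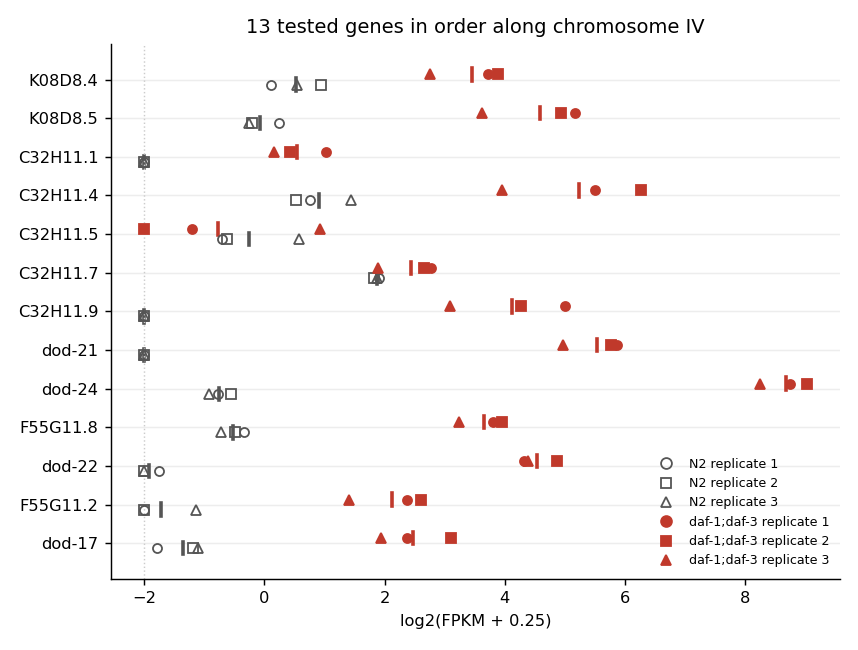
Levels of the 13 tested genes from K08D8.4 to *dod-17* in their order along chromosome IV, on a log2 axis of FPKM with 0.25 added, with symbols as in the plot of the highest and lowest genes. In 11 of 13 rows all red symbols lie to the right of all grey ones. Replicate 3 of the double mutants is the lowest of its group in 10 of those 11 rows.

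T24B8.5 (now *sysm-1*) and *sek-1* belong to the p38 MAP kinase pathway of innate immunity, in which SEK-1 is the MAP kinase kinase and T24B8.5, a ShK-like secreted peptide, is a widely used target. T24B8.5 read 8.65, 10.8 and 5.137 FPKM in N2 and 1085, 598.2 and 337.5 in *daf-1*; *daf-3* (log2 difference 6.22 ± 0.226, adjusted p = 0.000107). *sek-1*, chosen after its values were seen, read 6.86, 4.81 and 6.39 FPKM in N2 and 27.04, 32.5 and 35.6 in the double mutants (log2 difference 2.36 ± 0.190, adjusted p = 0.00211). Both had groups that did not overlap and were called in all 23 alternative fits. In *daf-1* single mutants their means were 310.3 and 31.9 FPKM, and neither differed from the double mutants in the test (adjusted p = 0.0972 and 0.955).

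Of the other genes with the largest differences, most have no described role. ZK813.3 read 1.57, 1.18 and 1.43 FPKM in N2 and 617.6, 424.2 and 461.0 in the double mutants (log2 difference 8.24 ± 0.127, adjusted p = 3.92e-06), and its mean in *daf-1* was similar at 406.6. F59C6.18 read 1.18, 0.313 and 0.339 FPKM in N2 and 476.9, 245.3 and 55.3 in *daf-1*; *daf-3* (log2 difference 7.90 ± 0.412), a spread of several fold between double mutant libraries that all lay above N2. Its log2 difference was 8.57 without batch 3.

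C01G10.4 was high in both mutants. It read 0, 0.584 and 0 FPKM in N2 and 69.8, 51.3 and 14.1 in the double mutants (log2 difference 6.64, 5.89 without batch 1 and 7.33 without replicate 3 and the block). Its *daf-1* mean was 14, and the difference between the mutants did not pass the test (1.42, adjusted p = 0.117).

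F59C6.18 was one of several genes that were high in the double mutant alone. Its mean in *daf-1* was 0.982 FPKM, and the difference between the mutants was 7.50 (adjusted p = 0.00628). Y49G5A.1 read 4.24, 8.46 and 3.17 FPKM in N2, 973.4, 758.2 and 147.9 in *daf-1*; *daf-3* and, on average, 13.1 in the single mutants, and its difference between double and single mutant was 5.85 (adjusted p = 0.0332). Its log2 difference from N2 was 6.55, 5.94 without batch 1 and 7.39 without replicate 3 and the block. F57G8.7, with N2 values of 0, 0.149 and 0 FPKM, read 74.8, 31.1 and 5.90 in the double mutants, and its *daf-1* mean was 0.277 (adjusted p = 0.0114 between the mutants). Its log2 difference from N2 of 6.38 became 5.46 without batch 1 and 7.26 without batch 3. C36C5.14 and C36C5.15, neighbours on chromosome V, were listed at 0 FPKM in all 3 *daf-1* libraries, had means of 0.190 and 0.314 FPKM in N2, and reached 19.7 (SD 10.2) and 17.4 (SD 9.11) FPKM in the double mutants. C36C5.14, C36C5.15 and the *daf-1* values given here were picked for display after the values of all 3 genotypes had been seen.

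C-type lectins, which bind sugars and many of which respond to microbes, gave the most DEGs of the gene families described here. Of 86 tested, 16 were higher and 1 lower, against 2.02% and 0.407% of all entries, and the median log2 difference was 0.34. Without replicate 3 of the double mutants and the block, 18 of 83 were higher and 7 lower. In that fit 3.27% of all entries were higher and 3.99% lower. *clec-85* read 25.6, 21.9 and 24.5 FPKM in N2 and 316.6, 252.7 and 251.8 in *daf-1*; *daf-3* (log2 difference 3.49 ± 0.106, adjusted p = 5.84e-05). *clec-67* read 0.0595, 0.328 and 0.312 FPKM in N2 and 31.998, 32.6 and 23.1 in the double mutants (log2 difference 5.97, adjusted p = 0.000411). In *daf-1* its mean was 83.3 FPKM, above that of the double mutants, with a log2 difference of −1.52 between double and single mutant (adjusted p = 0.0333).

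On chromosome II, *clec-62*, *clec-63*, *clec-65* and *clec-66* were higher, 4 of 5 genes tested in a row. *clec-64* between them was not called with all batches and was called higher without replicate 3 and the block. *clec-63* was the most abundant, at 568.9, 544.6 and 517.3 FPKM in N2 and 1764, 1725 and 2300 in *daf-1*; *daf-3* (log2 difference 1.82, adjusted p = 0.00158), and *clec-65* rose more, from a mean of 24.1 FPKM (SD 3.21) to 169.2 (SD 30.3). *clec-61*, elsewhere on the same chromosome, went the other way: 4.74, 2.61 and 2.80 FPKM in N2 against 0.0617, 0.280 and 1.87 in the double mutants. That difference did not pass the test with all batches (log2 difference −2.32, adjusted p = 0.131) and passed it without batch 3 (−3.22, adjusted p = 0.00658).

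Lysozymes and saposin-like proteins, which attack bacteria, moved in both directions. Of 31 tested, 3 were higher and 2 lower with all batches, against 2.02% and 0.407% of all entries. Without replicate 3 of the double mutants these numbers were 3 and 3 with the block and 4 and 6 without it. Of all entries, 3.13% were lower in the first of these fits and 3.99% in the second. *lys-2* read 3.64, 2.78 and 4.73 FPKM in N2 and 145.4, 135.0 and 61.1 in the double mutants (log2 difference 4.78 ± 0.351, adjusted p = 0.00143), and *lys-8* read 106.2, 87.4 and 93.4 against 300.7, 281.6 and 271.6 (log2 difference 1.57, adjusted p = 0.000701). The *daf-1* means of both were higher still, 203.7 and 449.1 FPKM, and the difference between double and single mutant passed the test of adjusted p for *lys-8* (−0.65, adjusted p = 0.00831) and missed it for *lys-2* (−0.93, adjusted p = 0.111). Among the lower ones, *ilys-5* fell from 1330, 1128 and 813.2 FPKM to 791.3, 546.5 and 258.9, with a log2 difference of −1.15 (adjusted p = 0.0253). It kept its call in 10 of 23 alternative fits: without batch 3 its difference was −0.90, under 2-fold, without batch 1 its adjusted p was 0.0761, and without the replicate block it was 0.288. In *daf-1* its mean was 112.9 FPKM, far below both other genotypes, and the log2 difference of the double mutants from *daf-1* was 2.27 (adjusted p = 0.00533). *lys-4* had the same order of means, 76.3 FPKM in N2, 37.6 in the double mutants and 7.97 in the single mutants, and missed the test against N2 with all batches (log2 difference −1.23, adjusted p = 0.117) but not without batch 3 (−1.71, adjusted p = 0.00337).

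The antimicrobial peptides of the epidermis (nlp, cnc, fip and fipr), which fungal infection and wounding induce, gave 9 higher and 0 lower DEGs among 36 tested. At an unadjusted p below 0.05, 16 were higher and 2 lower, against 10.9% and 7.38% of all entries. Without replicate 3 of the double mutants and the block, 10 of 34 were higher and 0 lower. Of all entries, 2.02% were higher and 0.407% lower DEGs with all batches, and 3.27% and 3.99% in that fit. The median log2 difference was 0.50, and their summed level was 509.6 to 559.5 FPKM in N2 and 999.9 to 1102 in the double mutants. *nlp-33* read 49.5, 37.03 and 46.9 FPKM in N2 and 163.4, 148.5 and 172.1 in *daf-1*; *daf-3* (log2 difference 1.86 ± 0.106, adjusted p = 0.000617). *nlp-29* read 11.2, 12.9 and 21.9 against 92.4, 54.7 and 122.9 (log2 difference 2.52, adjusted p = 0.00161). Both had groups that did not overlap, and replicate 3 of the double mutants was the highest library for both. *cnc-4* rose from a mean of 1.39 FPKM to 13.7 (log2 difference 2.97, adjusted p = 0.00731) and lost its call without batch 1 (adjusted p = 0.0951). In *daf-1* the means of these 3 genes were 185.7, 59.6 and 10.3 FPKM, and no difference between the mutants passed the test (adjusted p from 0.1004 to 0.474).

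Neuropeptide precursors, the FLP and NLP families that neurons release to modulate circuits, included many with a small upward difference. Of 85 tested, 6 were DEGs, all of them higher, where 2.02% of all entries were higher and 0.407% lower. Without a minimum fold, 16 were higher and 0 lower at the adjusted threshold, where 2.63% of all entries were higher and 0.513% lower. At an unadjusted p below 0.05, 64 were higher and 0 lower, against 10.9% and 7.38% of all entries, and the double mutant libraries lay above all N2 libraries for 56 of the 85. The median log2 difference was 0.57, 0.67 and 0.97 in batches 1, 2 and 3, and it was 0.59 without replicate 3 of the double mutants.

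*flp-13*, which encodes peptides that promote sleep after stress, read 8.23, 6.72 and 8.04 FPKM in N2 and 16.0, 15.7 and 18.6 in *daf-1*; *daf-3* (log2 difference 1.11, adjusted p = 0.0209). *flp-16* read 19.4, 19.5 and 23.4 against 36.1, 44.9 and 47.2 (log2 difference 1.03, adjusted p = 0.0104). *nlp-40*, a peptide that the intestine releases in the defecation rhythm, was higher by 0.60 in a narrow range, 195.9, 187.8 and 164.9 FPKM in N2 and 300.7, 286.0 and 247.7 in the double mutants, and so stayed under 2-fold. These differences are close to the limits: *flp-13* kept its call in 12 of 23 alternative fits and *flp-16* in 11 of 23, and both lost it without batch 1 (adjusted p = 0.109 and 0.0634), *flp-13* also without batch 2 (adjusted p = 0.0729).

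For Y57G11C.45 (now *nlp-56*) the single mutant stood nearer to N2. The N2 libraries had a mean of 4.86 FPKM (SD 0.310), those of *daf-1*; *daf-3* of 13.9 (SD 3.03) and the single mutants of 5.37 (SD 0.856), and the log2 difference between the mutants was 1.32 (adjusted p = 0.0285). Its call against N2 was lost without batch 1 (adjusted p = 0.0225 with all batches and 0.146 without). Markers of neurons as a whole moved less than the peptides: of 8 tested, 0 were DEGs and 2 were higher at an unadjusted p below 0.05, with a median log2 difference of 0.28 in limma. They include *egl-3* and *egl-21*, which encode enzymes that process the peptides (log2 differences 0.70 and 0.50, adjusted p = 0.0669 and 0.148). The summed level of the 8 markers was 350.1 to 417.7 FPKM in N2 and 409.5 to 512.2 in *daf-1*; *daf-3*, and their part in the neuropeptide result was not tested.

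Aspartic and cysteine proteases of the gut held the 3 neighbours *asp-6*, *asp-12* and *asp-5* on chromosome V, all of them higher. Of 19 tested, 5 were higher and 1 lower, against 2.02% and 0.407% of all entries. Without replicate 3 of the double mutants and the block, 4 of 18 were higher and 2 lower, against 3.27% and 3.99% of all entries. *asp-12* read 3.18, 2.14 and 1.60 FPKM in N2 and 15.9, 13.1 and 18.4 in *daf-1*; *daf-3* (log2 difference 2.68 ± 0.266, adjusted p = 0.00437), and *asp-5* read 253.4, 207.9 and 206.6 against 680.6, 843.7 and 1286 (log2 difference 2.03, adjusted p = 0.00623). *asp-6* read 581.6, 464.9 and 514.3 against 1520, 1416 and 3245. Replicate 3 of the double mutants was the highest library for each of the 3 genes, and *asp-6* lost its call without batch 1 (log2 difference 1.88, adjusted p = 0.0129, against 0.0692 without).

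*asp-17*, a protease of the same family, went the other way and had the lowest log2 difference named here outside *daf-3*, its neighbours and *linc-78*. It read 79.2, 67.7 and 69.2 FPKM in N2 and 3.39, 2.23 and 1.801 in the double mutants (log2 difference −4.77 ± 0.177, adjusted p = 0.000107), was called in all 23 alternative fits, and had a mean of 6.84 FPKM in *daf-1*. The double mutants were lower than *daf-1* by a log2 difference of −1.42 (adjusted p = 0.0116).

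F-box, MATH and BATH proteins, which bring substrates to ubiquitin ligases, gave 7 higher and 1 lower DEG among 260 tested, shares near those of all entries with all batches. Without replicate 3 of the double mutants and the block, 15 of 256 were higher and 3 lower, against 3.27% and 3.99% of all entries. The double mutant libraries lay above all N2 libraries for 33 of the 260 and below them for 56, against 11.8% and 7.14% of all entries. The 7 higher genes were low in N2. *fbxa-107* read 0.188, 0.217 and 0.370 FPKM in N2 and 9.40, 9.59 and 8.13 in *daf-1*; *daf-3* (log2 difference 4.21, adjusted p = 0.00117), and *bath-24* read 0.190, 0.704 and 0.2503 against 11.6, 8.48 and 9.33 (log2 difference 4.07, adjusted p = 0.00295). Both were called in all 23 alternative fits, and their *daf-1* means were 5.88 and 6.114 FPKM. *bath-24* is one of 5 higher genes among 8 tested between *bath-1* and *bath-24* on chromosome II (2027612 to 2045605).

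Many of the higher DEGs lay near each other. Of 244 higher DEGs with a position, 82 (33.6%) had another higher DEG starting within 10 kb, and of 10912 uncalled genes 455 (4.17%) had one. Of 47 lower DEGs with a position, 14 (29.8%) had another lower DEG starting within 10 kb, among them *daf-3* and its lower neighbours. The share of uncalled genes near a lower DEG was not computed. Runs of 3 or more, with starts at most 10 kb apart, included C01G10.6, C01G10.5, C01G10.4 and C01G10.17 on chromosome V (4 of 4 tested), F49F1.1, F49F1.5, *mul-1* and F49F1.7 on chromosome IV (4 of 4) and C36C5.5, C36C5.12, C36C5.14 and C36C5.15 on chromosome V (4 of 4). The share of tested genes that was higher was 3.45% on chromosome IV, 3.47% on chromosome V and 0.785% on chromosome I. The runs were found in the data, family members in a run resemble each other in sequence, and reads that fit several copies cannot be assigned with certainty from FPKM values, so these are descriptions.

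The 54 lower DEGs included single genes and small neighbouring groups. *asm-3*, which encodes an acid sphingomyelinase, read 37.5, 32.6 and 30.3 FPKM in N2 and 3.08, 4.71 and 5.84 in the double mutants (log2 difference −2.85 ± 0.245, adjusted p = 0.00265). Its mean in *daf-1* lay between, at 14.9 FPKM (SD 2.45), and the log2 difference of the double mutants from *daf-1* was −1.69 (adjusted p = 0.0249). *fog-3*, required in the germ line for the sperm fate, read 3.55, 3.38 and 3.32 FPKM in N2 and 0.543, 0.379 and 0.156 in *daf-1*; *daf-3* (log2 difference −2.64, adjusted p = 0.0105), with an adjusted p of 0.0877 without batch 1. *scl-24*, of the secreted SCP/TAPS family, read 4.08, 6.63 and 8.62 FPKM in N2 and 0.132, 0.599 and 0 in the double mutants (log2 difference −3.89, adjusted p = 0.00905, and 0.0998 without batch 1), and its difference was −3.26 without batch 3.

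*pud-3* and its neighbour *pud-4* (named for proteins up-regulated in *daf-2* mutants) had a mean below N2 in the double mutants and above N2 in *daf-1*. The difference of *daf-1* from N2 did not pass the test for either (log2 differences 1.40 and 1.12, adjusted p = 0.107 and 0.0790). *pud-3* read 515.0, 466.3 and 321.8 FPKM in N2, 134.1, 110.1 and 13.8 in the double mutants, and its *daf-1* mean was 1131 (SD 118.0). Its log2 difference from N2 was −2.85 ± 0.480 (adjusted p = 0.0347), and −2.01 without batch 3 (adjusted p = 0.000144), since that library was the lowest by far. It lost its call without batch 1 (adjusted p = 0.139) and without the replicate block (adjusted p = 0.180), and *pud-4* did the same (0.0198 with all batches, 0.104 and 0.125), with a log2 difference of −2.42 and of −1.83 without batch 3. Between the double and the single mutant both differences passed the test (log2 differences −4.25 and −3.54, adjusted p = 0.0186 and 0.00999).

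*pals-14* (F22G12.1) and *pals-6* (C17H1.7), adjacent on chromosome I and members of a family induced by intracellular pathogens, were both lower. *pals-14* read 11.3, 6.63 and 6.22 FPKM in N2 and 0.708, 0.420 and 2.197 in *daf-1*; *daf-3*, and *pals-6* read 12.08, 9.32 and 9.16 against 1.55, 2.34 and 3.02 (log2 differences −2.79 and −2.06, adjusted p = 0.0318 and 0.0191). Without batch 1 neither passed the test (adjusted p = 0.205 and 0.110), and without batch 3 the difference of *pals-14* was −3.48. Their *daf-1* means, 5.40 and 7.58 FPKM, were above those of the double mutants by the test as well (adjusted p = 0.0451 and 0.0258).

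Among 12 heat shock chaperones of the cytosol, 2 were lower and 0 higher with all batches, against 0.407% and 2.02% of all entries. Without replicate 3 of the double mutants, 2 were lower with the block and 4 without it, against 3.13% and 3.99% of all entries. *hsp-16.2*, a small heat shock protein, read 19.1, 10.36 and 19.8 FPKM in N2 and 5.43, 4.17 and 2.68 in the double mutants (log2 difference −1.93 ± 0.303, adjusted p = 0.0269), and *hsp-16.11* read 19.7, 7.44 and 11.7 against 3.96, 3.997 and 1.95 (−1.85, adjusted p = 0.0449). These genes are near-identical copies, whose reads can be split between them, and both lost their calls without batch 1 (adjusted p = 0.175 and 0.261). The lincRNA *linc-78* was listed at 0 FPKM in all double mutants and at 8.31, 7.23 and 19.4 in N2. Its log2 difference was −5.43, which depends on the 0.25 added to each value. In *daf-1* replicates 1, 2 and 3 *linc-78* read 15.6, 7.78 and 0 FPKM, so it also varied between replicates of 1 genotype. The difference between the mutants did not pass the test in limma (adjusted p = 0.115).

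The difference between *daf-1*; *daf-3* and N2 looked different in batch 3 from that in batches 1 and 2, and mainly among genes that were lower. Batches 1 and 2 alone, without *daf-1*; *daf-3* replicate 3, gave 816 DEGs (6.33%), 412 higher (3.2%) and 404 lower (3.13%). On the library set that the study kept, which adds N2 replicate 3 and has no block, there were 935 (7.25%), 421 higher (3.27%) and 514 lower (3.99%). Of the 412 higher ones, 386 had the same sign in batch 3 and 268 differed by at least 2-fold there, while 5 differed by at least 2-fold the other way. Of the 404 lower ones, 183 had the same sign in batch 3, 61 differed by at least 2-fold and 27 by at least 2-fold the other way. The median log2 difference of the 404 was −1.67 in batch 1, −1.51 in batch 2 and 0.03 in batch 3, where 48.7% of all entries were below N2. In the fit with all batches 259 of the 412 and 49 of the 404 remained DEGs. Batches 1 and 2 chose these genes, so only the batch 3 values are a reading that the choice did not use, and they come from 1 library of each genotype.

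**Figure D4:**
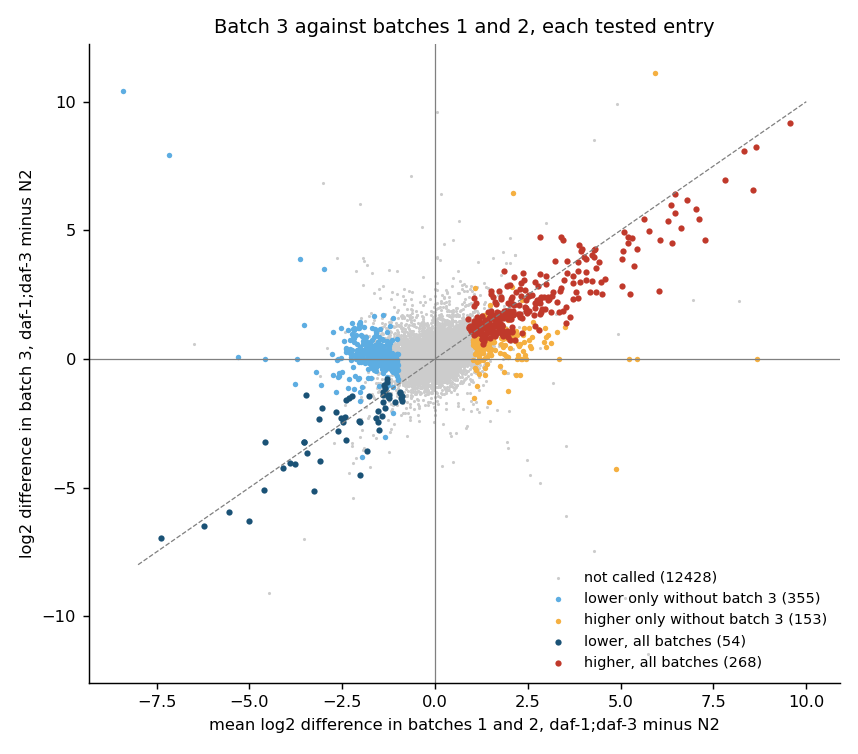
Log2 difference (*daf-1*; *daf-3* minus N2) in batch 3 against its mean over batches 1 and 2, 1 point for each of 13258 entries, with the dashed line where they are equal. Dark red and dark blue points are the 268 higher and 54 lower DEGs of the fit with all batches, orange and light blue points the 153 and 355 entries called only without batch 3, and grey points the rest. Red and dark blue points lie along the dashed line, whereas most light blue points lie around 0 on the vertical axis. The calls with all batches used the batch 3 values, so this contrast between the colors follows largely from how they were defined.

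Genes of the cuticle and the molt were among those called lower only without replicate 3. Of 40 tested genes of molting and of the precuticle, the matrix laid down before a new cuticle, 0 were DEGs with all batches in limma (2 higher and 15 lower at an unadjusted p below 0.05), and 15 were lower without replicate 3 in the set the study kept. Of all entries, 10.9% were higher and 7.38% lower at that p, and 3.99% were lower in that set. The median log2 difference of the 40 genes was −0.84 and −0.60 in batches 1 and 2 and 0.01 in batch 3. *noah-1*, a matrix protein of the embryonic sheath and the molt, read 81.1, 66.9 and 109.3 FPKM in N2 and 26.97, 31.7 and 89.6 in *daf-1*; *daf-3* (log2 difference −0.98, adjusted p = 0.0952, and −1.33, adjusted p = 0.00438, in batches 1 and 2 alone). *lpr-3*, a lipocalin of the same matrix, read 39.7, 47.2 and 83.2 against 11.7, 14.7 and 83.6. For both genes replicates 1 and 2 of the double mutants were the lowest of the 6 libraries, and replicate 3 lay within the range of N2 or just above it.

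Cuticlins, zona pellucida proteins of the cuticle, had the same split between batches. Of 25 tested, 0 were DEGs in limma with all batches (0 higher and 7 lower at an unadjusted p below 0.05), and 12 were lower without replicate 3. Over all entries the shares were 10.9% higher and 7.38% lower at that p, and 3.99% lower without replicate 3 and the block. The median log2 difference of the cuticlins was −1.37, −1.0 and 0.09 in batches 1, 2 and 3. The summed level of the family was 249.5, 340.6 and 708.9 FPKM in N2 replicates 1, 2 and 3 and 71.7, 94.98 and 1003 in those of the double mutants, so that replicate 3 was the highest in both genotypes. *cut-2* read 86.1, 185.8 and 425.5 FPKM in N2 and 17.6, 29.9 and 690.7 in *daf-1*; *daf-3*, a log2 difference of −1.40 (adjusted p = 0.287) with all batches and of −2.45 (adjusted p = 0.000144) in batches 1 and 2 alone. ZK180.5 (18.4, 39.9 and 101.8 against 3.56, 7.43 and 220.3) and R12E2.14 (2.61, 5.56 and 14.3 against 0.228, 0.519 and 30.1) followed the same order of libraries.

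The hedgehog-related genes and a list of genes related to sensory cilia, which takes in *dyf-7* and *daf-6*, had medians that split in the same way. Of 60 hedgehog-related and patched-related genes, 0 were DEGs in limma with all batches (1 higher and 9 lower at an unadjusted p below 0.05), and 9 were lower and 1 higher without replicate 3. *wrt-2*, a warthog gene of the epidermis, read 12.2, 14.1 and 38.5 FPKM in N2 and 2.53, 3.72 and 40.97 in the double mutants. The 27 genes of the ciliary list had medians of −0.89, −0.60 and 0.06 in batches 1, 2 and 3. With all batches 0 were DEGs (1 higher and 1 lower at an unadjusted p below 0.05), and *dyf-7* and *klp-11* were lower without replicate 3. Beside the counts of both lists, 10.9% of all entries were higher and 7.38% lower at that p. Without replicate 3 and the block, 3.27% of all entries were higher and 3.99% lower. Markers of epidermis and pharyngeal muscle also differed between batches: the summed level of 5 epidermal genes was 103.4, 110.7 and 168.7 FPKM in N2 and 49.3, 108.9 and 179.9 in *daf-1*; *daf-3*, and that of 6 pharyngeal muscle markers was 70.9, 77.1 and 111.7 against 67.9, 109.4 and 211.5. The epidermal sum of the double mutants was below that of N2 in batch 1 and close to it in batches 2 and 3, and the pharyngeal sum was above that of N2 in batches 2 and 3. Their part in the batch 3 result was not tested.

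**Figure D5:**
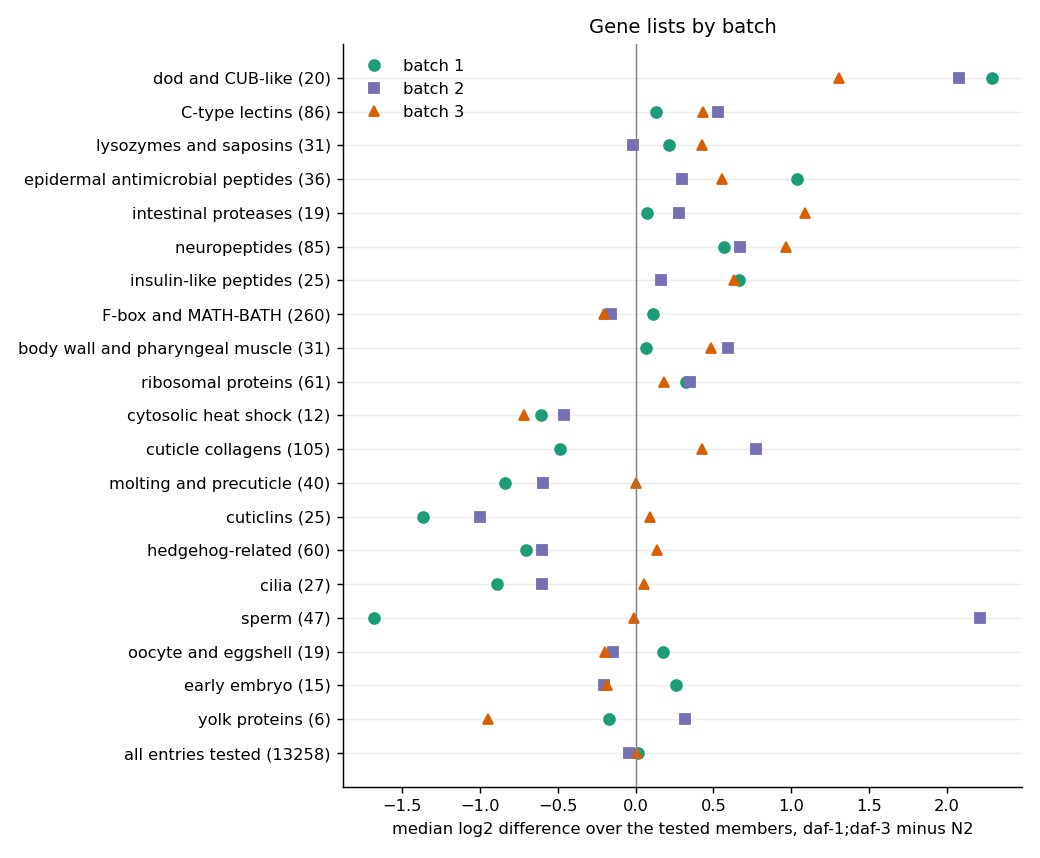
Median log2 difference (*daf-1*; *daf-3* minus N2) of the tested members of each gene list in each batch, with the number of members in parentheses. Circles are batch 1, squares batch 2 and triangles batch 3. The molting, cuticlin, hedgehog-related and ciliary lists have batches 1 and 2 below −0.59 and batch 3 between 0.01 and 0.14, the sperm list runs from −1.68 in batch 1 to 2.2 in batch 2, and the neuropeptide list lies between 0.57 and 0.97 in all batches.

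Cuticle collagens went both ways. Of 105 tested, 6 were higher and 2 lower with all batches, against 2.02% and 0.407% of all entries. Without replicate 3 and the block, 16 of 99 were higher and 15 lower, against 3.27% and 3.99% of all entries. The medians were −0.48, 0.77 and 0.43 in batches 1, 2 and 3. *col-96* read 15.2, 15.3 and 12.12 FPKM in N2 and 580.9, 439.2 and 87.7 in the double mutants (log2 difference 4.29 ± 0.429, adjusted p = 0.00449). The mean of *daf-1* was 27.1 FPKM (log2 difference 3.43 between the mutants, adjusted p = 0.0227). The difference from N2 was 5.03 without batch 3, and without batch 1 its adjusted p was 0.0664. *col-43* fell, from 36.7, 64.7 and 23.7 FPKM to 8.81, 3.33 and 1.29 (log2 difference −3.39, adjusted p = 0.0102, −4.07 without batch 1, −2.76 without replicate 3 and the block, and adjusted p = 0.0594 without the replicate block). *col-176* was called only without batch 3: it read 1.30, 1.33 and 1.03 FPKM in N2 and 16.8, 13.3 and 2.40 in *daf-1*; *daf-3* (adjusted p = 0.0505 with all batches and 0.000356 in batches 1 and 2).

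The largest difference called only without replicate 3 belonged to C16D9.13, a noncoding RNA listed at 0 FPKM in all N2 libraries and at 92.1, 112.2 and 0 in the double mutants. Its 3 *daf-1* libraries had a mean of 21.6 FPKM with an SD of 37.4, so that this transcript also came and went between replicates of 1 genotype.

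The lists of oocyte, embryo and germ line genes held no DEG. Among 19 oocyte and eggshell genes, 15 genes of the early embryo, 26 of P granules and meiosis and 29 of DNA replication and the cell cycle, 0 were DEGs in limma, and at an unadjusted p below 0.05 the numbers higher and lower were 0 and 0, 0 and 0, 1 and 2, and 0 and 2. Their medians were −0.06, −0.04, −0.12 and −0.16. The sperm genes varied between libraries instead: the median log2 difference of 47 tested was −1.68 in batch 1, 2.2 in batch 2 and −0.01 in batch 3. *spe-41*, a channel of sperm, was the 1 DEG among them, at 0.222, 0.320 and 0.256 FPKM in N2 and 2.202, 2.98 and 1.75 in the double mutants (log2 difference 2.29, adjusted p = 0.0187, and 0.144 without batch 1), with a mean of 2.06 in *daf-1*.

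Of 24 tested genes that the study names, most of which it chose on these libraries, so that their counts are not independent evidence, *clec-67* was higher and *ilys-5* lower in *daf-1*; *daf-3*. Their median log2 difference was −0.79, −0.49 and 0.80 in batches 1, 2 and 3.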

How the data were processed

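Total RNA of whole worms was extracted with TRIzol, and poly(A) libraries (TruSeq) were sequenced in pairs on a HiSeq2500. According to the submitters' processing notes and the methods, the authors used bcl2fastq 1.8.4 for demultiplexing, Trim Galore 0.4.0 for trimming, TopHat2 2.0.12 for alignment to the WBcel235 build, and Cufflinks (given as 2.21) for abundance. The deposited values are FPKM per gene locus, which the authors computed in each library and neither log-transformed nor rounded. SDs measure the spread between the libraries of a genotype. SEs come from the limma fit: they rest on the spread left after genotype and batch, moderated toward a trend over all entries tested. The part that counting of reads adds to either cannot be separated, since the deposited table gives no read counts and depth was not used here. Of 40313 entries, 186 name no gene and were left out, 4882 join several genes under 1 value, and 346 share a name.

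An entry was tested when at least 2 of the 6 libraries reached 0.5 FPKM, which left 11419 with 1 gene name and 1839 joined. limma 3.58.1 (R 4.3.3) was fitted to log2(FPKM + 0.25) with genotype and batch number as terms and a trend of variance on level, and p-values were adjusted by Benjamini and Hochberg over all entries tested. Differences of log2 values understate the change of genes with low levels. The number pairs the libraries because the study calls its replicates batches, and the deviations of same-numbered N2 and *daf-1*; *daf-3* libraries from their group means correlated at 0.25, 0.15 and 0.56. Unlike numbers correlated at 0.33 (N2 replicate 1 with *daf-1*; *daf-3* replicate 2) and 0.12 (N2 replicate 2 with *daf-1*; *daf-3* replicate 1), and below 0 where replicate 3 was one of them. Levels in *daf-1* were tested in a fit of all 9 libraries with the same block, in which the comparisons share libraries. The script was tested on simulated data. A paired fit cannot use a library without its partner, so leaving out 1 library there leaves out its batch, apart from the filter on low values. Positions come from the Ensembl annotation of WBcel235, where 98.1% of tested entries with 1 name were found.

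The genes and lists were chosen with earlier results of these data known. The rule for named genes takes *daf-1*, *daf-3* and genes within 50 kb of *daf-3*, genes of DAF-7 signaling, those 12 highest and 12 lowest among DEGs that have 1 name, groups apart and 5 FPKM or more on average in the genotype with more, up to 3 members of each list by p, the 6 highest and 6 lowest called only without *daf-1*; *daf-3* replicate 3, and genes the study names. Other genes named, such as those of runs along a chromosome, *irg-5*, *dod-19*, *pud-4*, *pals-6*, *hsp-16.11*, *asp-5*, *asp-6*, C36C5.14, C36C5.15, *nlp-40* and *clec-63*, were chosen after their values were seen. Alternatives were the fit without the block, other added values, filters, scalings and weights, and each library left out with and without the block, 23 fits for each gene.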

Additional observations from a re-analysis of the deposited data

How the results depend on the processing

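Both the counts of DEGs and the balance of higher and lower ones depended on the libraries and the fit. Against 322 DEGs (268 higher, 54 lower), the fit without the replicate block gave 256, 38 of them lower. No filter on low values, which tests 18866 entries, gave 177 (156 and 21), and moderation without a variance trend gave 160 (137 and 23). With all 9 libraries in the fit 87 entries were lower, and with array quality weights 83. Leaving out 1 library at a time with the block gave 151 to 826 DEGs, 132 to 412 higher and 19 to 414 lower. Without the block it gave 133 to 935, 113 to 421 higher and 18 to 514 lower: 146, 133 and 139 without N2 replicates 1, 2 and 3, and 173, 141 and 935 without *daf-1*; *daf-3* replicates 1, 2 and 3. Other added values, quantile or upper quartile scaling, a stricter filter, entries with 1 name and no minimum fold kept the number within 1.5 times. No named gene that was called reversed its sign: of its values over the alternatives 1099 kept the call and 287 lost it. The median of all entries moved by less than 0.1. With 3 libraries of a genotype and no read counts, differences under 2-fold and genes near 0.5 FPKM are the least certain.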

Other observations

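Muscle, ribosome and peptide hormone genes showed small differences that seldom passed the limits. Of 31 sarcomere genes, 15 were higher and 0 lower at an unadjusted p below 0.05, and 0 were DEGs in limma, with a median log2 difference of 0.38. At that p, 10.9% of all entries were higher and 7.38% lower. *lev-11*, the tropomyosin gene, read 427.5, 493.2 and 453.0 FPKM in N2 and 536.5, 800.6 and 695.3 in *daf-1*; *daf-3* (adjusted p = 0.0656). Of 61 ribosomal protein entries, 31 were higher and 0 lower at an unadjusted p below 0.05 and 0 were DEGs, with a median of 0.28, although the libraries of the 2 genotypes were apart for only 2 of them. Of 25 insulin-like peptides 6 were higher and 1 lower at that p and 0 were DEGs, with a median of 0.33.

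Nuclear hormone receptors, of which 4 were higher and 1 lower among 153 tested, and chemoreceptors, 2 and 1 of 72, were called about as often as all entries with all batches. Without replicate 3 and the block, the numbers were 4 and 5 of 149 and 4 and 1 of 65, against 3.27% and 3.99% of all entries. *nhr-114*, a receptor of the intestine and germ line, read 21.3, 24.3 and 20.8 FPKM in N2 and 88.1, 118.7 and 34.6 in *daf-1*; *daf-3* (log2 difference 1.68, adjusted p = 0.0381), and *nhr-137* rose from a mean of 3.68 FPKM (SD 0.746) to 12.4 (SD 2.67). Of 117 detoxification genes, 2 were higher and 1 lower with all batches, also about as often as all entries, and 7 and 5 of 114 without replicate 3 and the block. Among the higher was *ugt-44*, a UDP-glucuronosyltransferase gene, with 11.1, 11.8 and 11.3 FPKM in N2 and 54.7, 62.4 and 23.1 in *daf-1*; *daf-3*.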
